A study of Mus musculus with 6 samples.

Results

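The synapse, vesicle and transmitter genes described here are 40 gene symbols chosen by name: proteins of synaptic vesicles and of vesicle release, postsynaptic scaffolds and receptors, the enzymes and carriers of GABA and glutamate, and a few general neuronal genes. They were taken from a table of transcript abundances after repeated lines of a transcript were dropped and transcripts were summed per gene identifier. All 40 symbols were found, under 41 gene identifiers of the 35850 in the table, because Rab3a had 2. The tissue was optic nerve from mice of the genotype GFAP-Cre; Nf1-Flox/R681X at 6 weeks of age. These mice are a model of optic pathway glioma in neurofibromatosis type 1: 1 Nf1 allele carries R681X, and the other can be deleted where Cre is made under the GFAP promoter, which is active in astrocytes and their precursors. Both diets were compared within this genotype, so no value here bears on Nf1 itself. The series asked how maternal exposure to an obesogenic diet (AIN-76A with 58% of energy from fat, with sucrose) altered expression, against a control diet (PicoLab 5053), with 3 libraries of each. Libraries are called control 1 to 3 and obesogenic 1 to 3, after the numbers in their titles. The labels do not say whether a library came from 1 animal or from several, so the p-values measure only the spread between these libraries.

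At a chemical synapse, a vesicle filled with transmitter docks at the active zone, and SNARE proteins on the vesicle and on the plasma membrane zip together to fuse them when calcium binds a synaptotagmin. Receptors held by scaffold proteins on the other side receive the transmitter. The optic nerve is a tract of retinal ganglion cell axons wrapped by glia: the cell bodies and dendrites of those neurons lie in the retina and their synapses in the brain. Glia make some of these transcripts too, so a level above 0 in nerve does not by itself mark a neuron.

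The promoters of 3 of the genes that differ in role are shown. They are those of Syn1 (the vesicle protein synapsin 1), Gad2 (a GABA-making enzyme) and Slc17a6 (the vesicular glutamate transporter VGLUT2). Each run is the 250 bases before the transcript start in RefSeq on GRCm38.p6, at chrX:20920919-20921168 on the minus strand for Syn1, chr2:22622077-22622326 on the plus strand for Gad2 and chr7:51621580-51621829 on the plus strand for Slc17a6. Capitals mark matches to TTCAGCACC and GGACAG, letters from the 2 parts of the element bound by the neuronal gene repressor REST, and to TGACG, the core of the cyclic AMP response element.
Syn1: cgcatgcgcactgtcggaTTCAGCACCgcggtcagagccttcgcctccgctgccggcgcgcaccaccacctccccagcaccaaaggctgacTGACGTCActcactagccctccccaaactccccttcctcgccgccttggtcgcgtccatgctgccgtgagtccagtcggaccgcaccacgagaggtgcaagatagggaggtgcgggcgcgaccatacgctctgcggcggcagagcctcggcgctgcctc
Gad2: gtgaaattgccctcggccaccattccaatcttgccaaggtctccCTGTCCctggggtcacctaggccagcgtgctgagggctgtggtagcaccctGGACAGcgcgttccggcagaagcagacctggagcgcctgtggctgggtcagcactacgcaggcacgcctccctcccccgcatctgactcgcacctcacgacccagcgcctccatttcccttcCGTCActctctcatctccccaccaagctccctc
Slc17a6: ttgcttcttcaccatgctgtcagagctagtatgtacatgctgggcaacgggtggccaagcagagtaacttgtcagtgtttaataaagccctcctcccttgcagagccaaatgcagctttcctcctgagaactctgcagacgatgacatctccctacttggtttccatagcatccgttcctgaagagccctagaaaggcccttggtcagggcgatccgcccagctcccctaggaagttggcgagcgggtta
RefSeq held 43 promoters for 30 of the 40 symbols. On either strand, TTCAGCACC was found in 1 of the 43, that of Syn1, against 0.301% of the 32851 mouse promoters searched. TGACG was in 12 of the 43 (27.9%, against 17.8%), and GGACAG in 9 (20.9%, against 18.7%). The Syn1 match to TGACG lies in a palindrome, so both strands match at overlapping positions. Slc17a6 has a second promoter entry in RefSeq. The one shown held none of the 3 strings, while the other held TGACG and counts among the 12. A match describes these letters and is no sign of binding.

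The listed transcripts summed to between 788456 and 832193 TPM per library (TPM scales reads per transcript length to a fixed library total), and between 13824 and 14514 genes reached 1 TPM. The table gives no read counts, so the depth of the libraries is unknown. Obesogenic 2 stood apart from the other 5 libraries: 20.6% of its summed TPM came from immunoglobulin genes, and at most 0.0439% did in any other. Summed marker levels of astrocytes ranged from 5654 to 7431 TPM in the control and from 2771 to 6596 TPM in the obesogenic libraries, and those of oligodendrocytes and myelin from 62174 to 70160 and from 27147 to 55474 TPM, so markers of both glial types were abundant in all 6 libraries. Of 8 retinal ganglion cell markers, 4 were below 1 TPM in all 6 libraries, the defining factors Pou4f1, Pou4f2 and Pou4f3 among them, while Rbpms was at 6.26 to 15.0 TPM and Opn4 at 0.90 to 2.43 TPM.

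The synapse, vesicle and transmitter genes were high in obesogenic 1 and 3 and near the control level in obesogenic 2. Their summed level was 531, 422 and 605 TPM in control 1, 2 and 3, and 1661, 583 and 3488 TPM in obesogenic 1, 2 and 3. Obesogenic 2 thus lay inside the control range of the sum, while obesogenic 1 and 3 lay above it. The place of obesogenic 2 depended on its immunoglobulin content: with those genes left out and each library rescaled to the same total, the sums were 663, 529 and 750.2 in the controls and 2084, 881 and 4424 in the obesogenic libraries, so that obesogenic 2 also lay above all controls. The median over the genes of the level relative to the control mean was 4.89-fold in obesogenic 1, 1.20-fold in obesogenic 2 and 9.22-fold in obesogenic 3. In bulk tissue, more cells of a type and more RNA per cell cannot be told apart.

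A gene was tested if it reached 1 TPM in at least 3 of the 6 libraries, which 39 of the 41 did; Bsn and Slc17a7 did not. For 6 of the 39 (Syt1, Unc13a, Gria1, Grin2b, Gad1 and Slc17a6) at most 1 control library reached 1 TPM, so they were tested largely through the obesogenic libraries. With limma on log2(TPM + 1) and adjustment over all 14364 genes tested, 0 of the 39 passed an adjusted p of 0.05; 0.00696% of all genes did. That share is 1 gene, the predicted gene Gm9836, lower with the obesogenic diet and named after its value was seen. At an unadjusted p under 0.05, 22 of the 39 were higher and 0 lower, where 5.97% of all genes were higher at that level. The mean was higher with the obesogenic diet for 38 of the 39, all but Vamp2, and the median log2 difference was 1.76, beside 0.079 over all genes tested. When immunoglobulin genes were left out and the libraries rescaled, the Vamp2 difference was 0.00042 and the median 1.90.

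All 3 obesogenic libraries lay above all 3 control libraries for 15 of the 41 genes, against 8.88% of all genes tested, and below them for 0. With immunoglobulin genes left out and the libraries rescaled, 21 of the 41 were in that order, against 16.0% of all genes tested: Syn1, Syp, Pclo, Gria1, Slc17a6 and Gap43, whose diets overlapped on the deposited scale, joined the 15. Obesogenic 1 and 3 both lay above every control library for 37 of the 41, the exceptions being Vamp2, Stx1a, Bsn and Slc17a7; 31.6% of all genes tested had this order. The calls depended on obesogenic 2: without it, 25 of the 39 passed at an adjusted p under 0.05 in limma, all higher, where 5.12% of all genes passed in that direction.

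**Figure D1:**
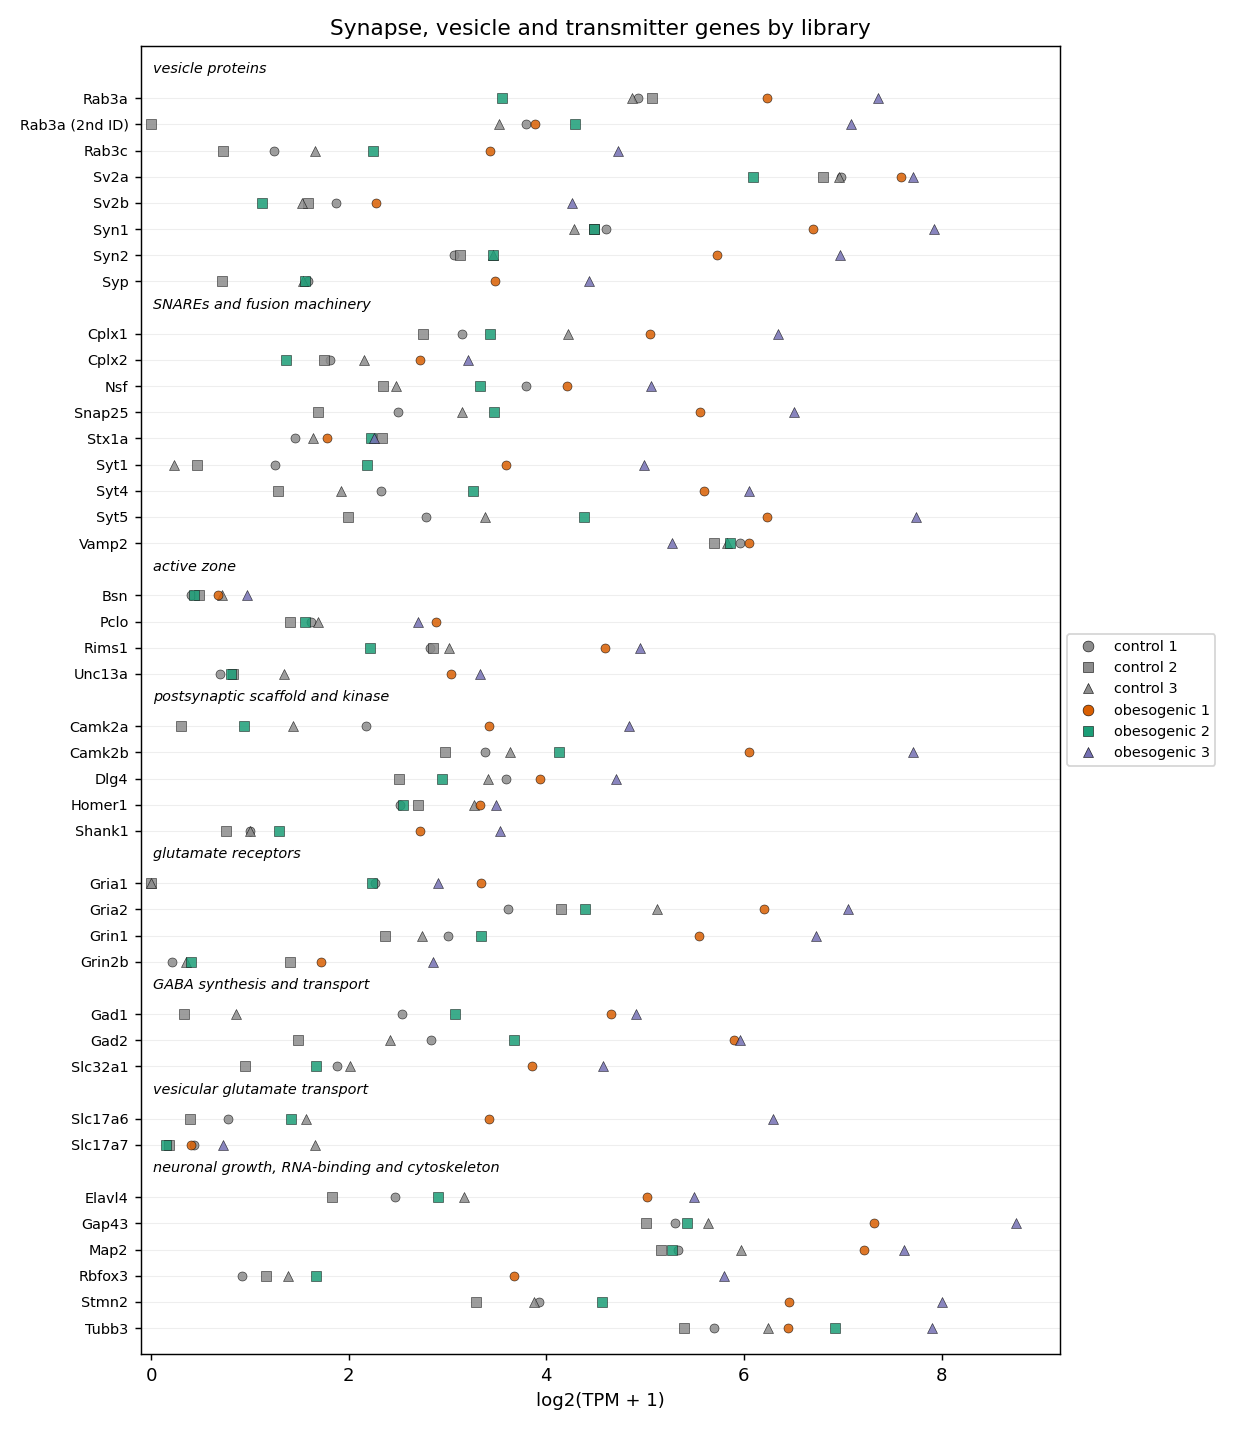
Level of each gene in each of the 6 libraries, on the horizontal axis as log2(TPM + 1), grouped by role. Obesogenic 1 and 3 lie to the right of all control libraries for 37 of 41 genes, and obesogenic 2 does so for 15.

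Among the vesicle proteins, all 8 identifiers were above every control library in obesogenic 1 and 3, and 3 (Syn2, Rab3c and the second Rab3a identifier) also in obesogenic 2. Syn1 encodes synapsin 1, which tethers vesicles to actin. It was at 23.4, 21.3 and 18.5 TPM in the controls and at 103.0, 21.4 and 242 TPM in obesogenic 1, 2 and 3. Obesogenic 2 fell inside the control range, so the diets overlapped on the deposited scale, and the log2 difference was 1.91 (SE 0.77, limma adjusted p = 0.437). Syn2, its close relative, was at 7.40, 7.72 and 9.98 TPM in the controls and at 52.1, 10.0 and 125.0 TPM in the obesogenic libraries. There the diets did not overlap, but obesogenic 2 lay barely above control 3. Syp, the vesicle membrane protein synaptophysin, was at 2.00, 0.65 and 1.91 TPM and at 10.2, 1.94 and 20.5 TPM.

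Sv2a and Sv2b encode related vesicle glycoproteins, and Sv2a is the target of the antiepileptic drug levetiracetam. Sv2a was the most abundant of the vesicle genes in the control nerves, at 126, 110.4 and 124 TPM, and was at 191, 67.4 and 209 TPM in the obesogenic libraries. Its spread between the obesogenic libraries was larger than the difference between diets (log2 difference 0.22, SE 0.41, limma adjusted p = 0.891). Obesogenic 2 was the lowest of the 6 libraries for Sv2a, Sv2b and Rab3a. Sv2b was at 2.67, 2.00 and 1.88 TPM in the controls and at 3.83, 1.18 and 18.2 TPM in the obesogenic libraries, 4.75-fold higher in obesogenic 3 than in obesogenic 1. Rab3a and Rab3c encode GTPases that guide vesicles to the membrane. Rab3c was at 1.37, 0.65 and 2.15 TPM in the controls and at 9.80, 3.75 and 25.5 TPM in the obesogenic libraries, with no overlap (log2 difference 2.26, limma adjusted p = 0.302). Rab3a was at 29.4, 32.6 and 28.1 TPM and at 74.5, 10.7 and 162 TPM under its first identifier. The second identifier, listed with the single transcript Rab3a-207, was at 12.9, 0 and 10.5 TPM and at 13.8, 18.6 and 134 TPM; reads of the same gene may be split between the 2, so both are uncertain.

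Of the 9 SNARE and fusion genes, 7 were above every control library in obesogenic 1 and 3, and 4 (Snap25, Syt1, Syt4 and Syt5) did not overlap between the diets. Snap25, a SNARE of the plasma membrane, was at 4.65, 2.22 and 7.84 TPM in the controls and at 45.9, 10.1 and 90.2 TPM in the obesogenic libraries. Every obesogenic library was above every control (log2 difference 2.74, SE 0.76, limma adjusted p = 0.302). Syt1, the calcium sensor of fast release, was at 1.39, 0.38 and 0.18 TPM in the controls and at 11.1, 3.55 and 30.8 TPM in the obesogenic libraries. Syt4, a synaptotagmin found on dense-core vesicles, was at 4.03, 1.44 and 2.79 TPM and at 47.3, 8.60 and 65.5 TPM. Syt5, which has been linked to dense-core vesicle release as well, was at 5.89, 2.99 and 9.41 TPM and at 74.2, 19.8 and 213 TPM. In all 3 synaptotagmins obesogenic 2 was the lowest obesogenic library and still above the highest control. The difference for Syt5, 3.40 on the log2 scale (SE 0.80, limma adjusted p = 0.249), was the largest of the 39 tested, and that for Syt4 was 3.12 (SE 0.72, adjusted p = 0.238).

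The complexins clamp and then promote SNARE fusion. Cplx1 was at 7.83, 5.73 and 17.6 TPM in the controls and at 32.2, 9.78 and 80.3 TPM in the obesogenic libraries. Cplx2 was at 2.5, 2.37 and 3.47 TPM and at 5.61, 1.57 and 8.21 TPM. Nsf, the ATPase that takes SNARE complexes apart, was at 12.9, 4.10 and 4.56 TPM and at 17.6, 9.03 and 32.3 TPM. The diets overlapped for all 3, in each through obesogenic 2. Vamp2, the vesicle SNARE, did not share the pattern: it was at 61.2, 50.7 and 55.8 TPM in the controls and at 65.2, 57.0 and 37.5 TPM in the obesogenic libraries, lowest where Snap25 was highest. Stx1a, the syntaxin partner of Snap25, was at 1.75, 4.06 and 2.11 TPM and at 2.44, 3.67 and 3.77 TPM, with the highest value in control 2.

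The active zone genes overlapped between the diets in all 4 cases. Rims1, a scaffold that ties vesicles to calcium channels, was at 6.08, 6.25 and 7.08 TPM in the controls and at 23.2, 3.65 and 29.9 TPM in the obesogenic libraries. Unc13a, which primes vesicles for fusion, was at 0.63, 0.77 and 1.55 TPM and at 7.21, 0.75 and 9.06 TPM. Pclo, the large scaffold piccolo, was at 2.06, 1.66 and 2.22 TPM and at 6.37, 1.95 and 5.51 TPM, higher in obesogenic 1 than in obesogenic 3. Bsn, its relative bassoon, was below 1 TPM in all 6 libraries.

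On the postsynaptic side, all 5 scaffold and kinase genes were above every control library in obesogenic 1 and 3, and Shank1 and Camk2b also in obesogenic 2. Camk2b, a subunit of the calcium-activated kinase CaMKII, was at 9.40, 6.84 and 11.4 TPM in the controls and at 65.3, 16.5 and 208 TPM in the obesogenic libraries (log2 difference 2.64, SE 0.80, limma adjusted p = 0.341). Camk2a, the subunit typical of forebrain excitatory neurons, was listed at 3.52, 0.24 and 1.71 TPM and at 9.74, 0.92 and 27.6 TPM. Its longest coding transcript, Camk2a-201, and 4 coding transcripts of Camk2b were not analysed, so the levels of the 2 subunits cannot be ranked. Shank1, a scaffold of excitatory synapses, was at 1.00, 0.70 and 1.00 TPM and at 5.59, 1.45 and 10.6 TPM. Dlg4 (PSD-95) was at 11.1, 4.69 and 9.59 TPM and at 14.4, 6.68 and 25.1 TPM, and Homer1, a linker to metabotropic receptors, at 4.72, 5.49 and 8.65 TPM and at 9.03, 4.86 and 10.3 TPM. For both of those scaffolds obesogenic 1 exceeded the highest control by less than the controls differed among themselves.

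All 4 glutamate receptor subunits were above every control library in obesogenic 1 and 3. Grin1, the obligatory NMDA receptor subunit, was at 7.05, 4.15 and 5.70 TPM in the controls and at 45.7, 9.14 and 105.1 TPM in the obesogenic libraries. It was the single receptor gene with no overlap between the diets (log2 difference 2.5, SE 0.78, limma adjusted p = 0.345). Gria2, the AMPA receptor subunit that limits calcium entry, was at 11.2, 16.7 and 33.9 TPM and at 72.9, 20.0 and 132 TPM. Grin2b was at 0.15, 1.65 and 0.28 TPM and at 2.29, 0.32 and 6.24 TPM. Gria1 was listed at 3.82, 0 and 0 TPM in the controls and at 9.10, 3.71 and 6.49 TPM in the obesogenic libraries.

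All 3 GABA genes were above every control library in obesogenic 1 and 3, and Gad1 and Gad2 also in obesogenic 2. Gad1 and Gad2 make GABA from glutamate, and Slc32a1 (VGAT) loads it into vesicles. Gad2 was at 6.12, 1.80 and 4.34 TPM in the controls and at 58.8, 11.8 and 61.1 TPM in the obesogenic libraries, 14.4-fold, 2.88-fold and 14.9-fold the control mean. Gad1 was at 4.82, 0.26 and 0.82 TPM and at 24.2, 7.46 and 29.0 TPM. The log2 difference was 2.93 for Gad2 (SE 0.67, limma adjusted p = 0.237) and 2.97 for Gad1 (SE 0.70, adjusted p = 0.248). Slc32a1 was at 2.69, 0.94 and 3.05 TPM and at 13.5, 2.18 and 22.8 TPM, and overlapped through obesogenic 2.

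The 2 vesicular glutamate transporters differed. Slc17a6, the form used by retinal ganglion cells and by hypothalamic and thalamic neurons, was at 0.72, 0.32 and 1.97 TPM in the controls and at 9.73, 1.67 and 77.3 TPM in the obesogenic libraries. Obesogenic 3 was at 7.95 times obesogenic 1 and 77.2 times the control mean, and the diets overlapped because control 3 exceeded obesogenic 2 on the deposited scale (log2 difference 2.79, SE 1.11, limma adjusted p = 0.437). Slc17a7 (VGLUT1), the form of cortical excitatory neurons, was at 0.35, 0.13 and 2.16 TPM and at 0.33, 0.11 and 0.66 TPM, with its highest value in control 3. The 7 cortical excitatory neuron markers summed to between 9.15 and 13.5 TPM in the controls and between 10.4 and 16.0 TPM in the obesogenic libraries, and 5 of the 7 stayed below 1 TPM throughout, Neurod6 and Neurod2 among them.

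**Figure D2:**
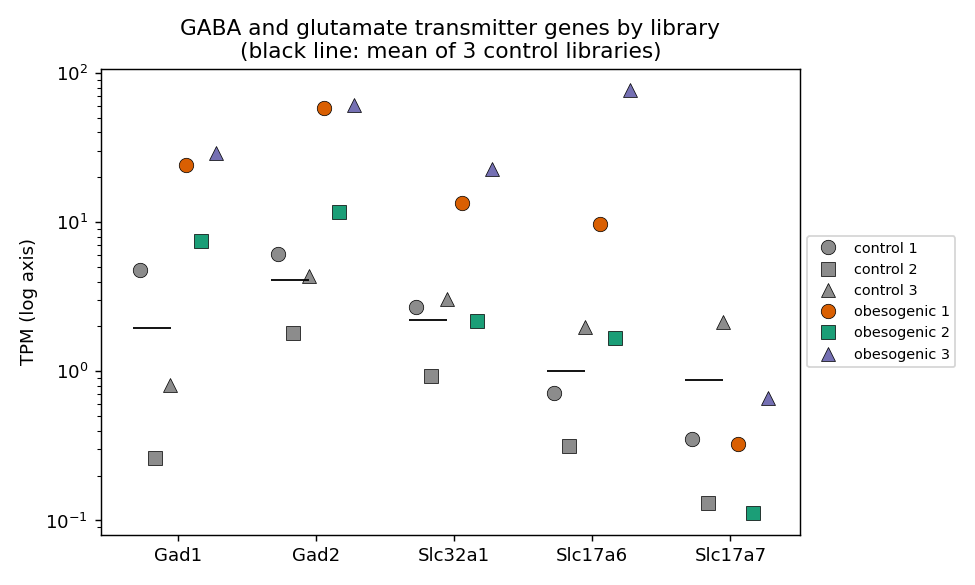
TPM on a log axis of the GABA genes Gad1, Gad2 and Slc32a1 and the glutamate transporters Slc17a6 and Slc17a7 in each library, with a black line at the mean of the 3 control libraries. Gad2 is nearly level between obesogenic 1 and 3 (58.8 and 61.1 TPM), Slc17a6 is not (9.73 and 77.3 TPM), and Slc17a7 is below 1 TPM in 5 of the 6 libraries.

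Obesogenic 3 exceeded obesogenic 1 for 38 of the 41 genes, the exceptions being Vamp2, Gria1 and Pclo, with a median ratio of 1.97; over all genes tested the median ratio was 0.977. The excess was uneven from gene to gene, also within a role. It was 1.04-fold for Gad2, 1.20-fold for Gad1 and 1.69-fold for Slc32a1, and 7.95-fold for Slc17a6. Among the vesicle proteins it ran from 1.09-fold for Sv2a to 9.75-fold for the second Rab3a identifier, among the scaffolds and kinases from 1.14-fold for Homer1 to 3.19-fold for Camk2b, and among the general neuronal genes from 1.33-fold for Map2 to 4.67-fold for Rbfox3. The median was 1.27-fold over the active zone genes and 1.20-fold over the GABA genes, and no difference between roles was tested. The ratio of Slc17a6 to Gad2 was therefore 0.166 in obesogenic 1, 0.142 in obesogenic 2 and 1.27 in obesogenic 3. In the controls it was 0.118, 0.175 and 0.454, so obesogenic 3 stood above the other 5 libraries while the diets overlapped (exact permutation test, two-sided p = 0.7, and 0.7 after adjustment over 4 ratios). The ratio of Gad2 to Snap25 stayed between 0.554 and 1.32 in all 6 libraries, with the same p. That of Slc17a6 to Snap25 was 0.857 in obesogenic 3 and at most 0.252 in the others (exact permutation p = 0.5, adjusted 0.7). With 3 libraries against 3, the smallest p this test can give is 0.1.

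**Figure D3:**
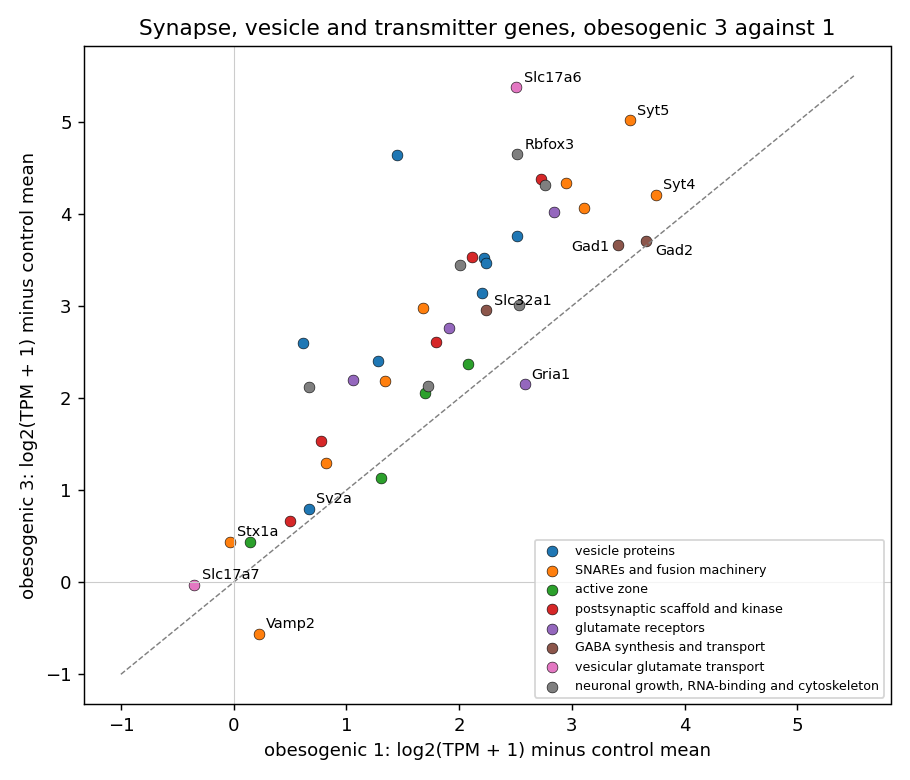
Each point is a gene: its log2(TPM + 1) in obesogenic 1 (horizontal) and obesogenic 3 (vertical) minus the control mean, coloured by role, with a dashed line where both are equal. Most points lie above the line; Gad1 and Gad2 lie close to it, Slc17a6 lies far above, and Vamp2, Gria1 and 1 active zone gene (Pclo) lie below.

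All 6 general neuronal genes were above every control library in obesogenic 1 and 3, and Stmn2, Rbfox3 and Tubb3 also in obesogenic 2. Stmn2, a microtubule regulator of growing axons, was at 14.2, 8.77 and 13.6 TPM in the controls and at 86.9, 22.6 and 256 TPM in the obesogenic libraries. Rbfox3 (NeuN), a nuclear marker of most mature neurons, was at 0.89, 1.23 and 1.61 TPM and at 11.7, 2.17 and 54.7 TPM. Gap43, which axons carry to their growth cones and which some glia make, was at 38.3, 31.3 and 48.6 TPM and at 159, 41.8 and 431 TPM. Elavl4, a neuronal RNA-binding protein, was at 4.53, 2.55 and 8.0 TPM and at 31.5, 6.50 and 44.1 TPM. Tubb3, neuronal beta-tubulin, was at 51.0, 40.9 and 74.9 TPM and at 86.5, 120.3 and 238 TPM. Unlike the other 5 genes of its role, it was higher in obesogenic 2 than in obesogenic 1.

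Map2 encodes a microtubule protein with a long form typical of dendrites and short forms that are made early in development and in some glia. The gene as a whole was at 39.2, 34.9 and 61.9 TPM in the controls and at 148, 37.5 and 196 TPM in the obesogenic libraries, so obesogenic 2 was inside the control range. Its transcripts differed from one another. Map2-204, with the longest coding sequence (1828 codons), was at 3.51, 1.59 and 4.07 TPM in the controls and at 33.3, 7.5 and 61.4 TPM in the obesogenic libraries, without overlap. Map2-207, a short form of 498 codons, was at 22.6, 21.7 and 29.9 TPM and at 46.7, 18.2 and 51.1 TPM. The ratio of the long to the short transcript was 0.155, 0.0736 and 0.136 in the controls (mean 0.122 ± 0.043, SD, n = 3) and 0.713, 0.412 and 1.20 in the obesogenic libraries (mean 0.775 ± 0.398, SD, n = 3). All 3 obesogenic ratios were above all control ratios (exact permutation test, two-sided p = 0.1, the smallest possible, and 0.4 after adjustment over the 4 ratios). This pair was chosen after its values were seen. Map2-205, another short form (467 codons), was at 1.36, 0 and 2.13 TPM in the controls. In the obesogenic libraries it was at 8.05, 1.93 and 11.5 TPM, high in obesogenic 1 and 3 like Map2-204. Map2-203, of 466 codons, overlapped between the diets, at 0.75, 0 and 4.78 TPM and at 2.19, 1.32 and 4.41 TPM. The ratio was computed against Map2-207 alone, so its separation by diet says nothing of short forms in general. The short forms Map2-201 and Map2-202 were not analysed here.

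**Figure D4:**
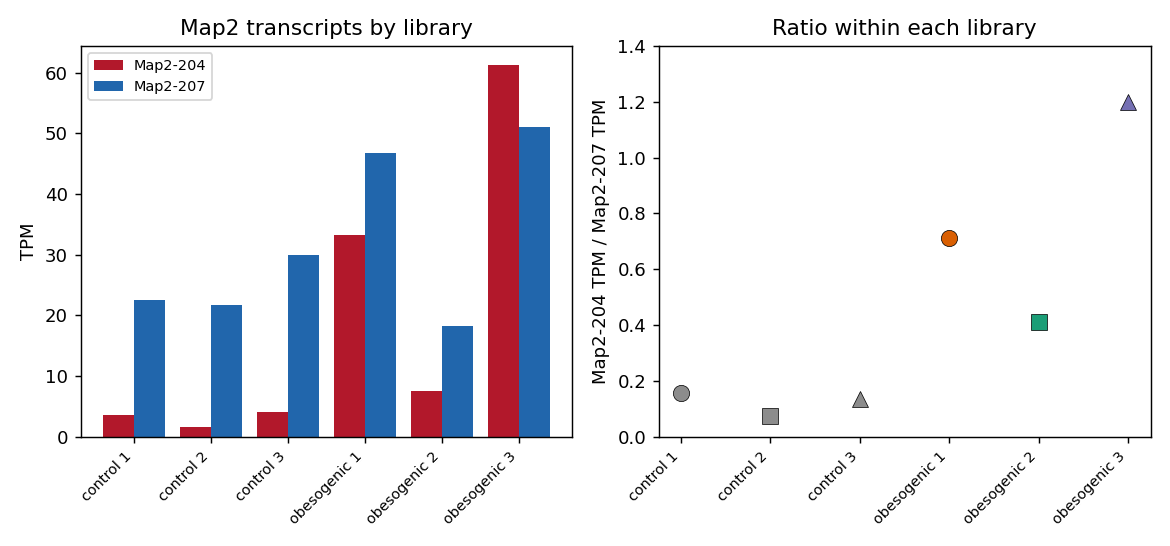
Left, TPM of the long transcript Map2-204 and the short transcript Map2-207 in each library as bars from 0; right, the ratio of the 2 in each library. The ratio is between 0.0736 and 0.155 in the controls and between 0.412 and 1.20 in the obesogenic libraries.

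Which transcripts of a gene were listed varied. The 41 identifiers had 239 listed transcripts. Of 170 coding transcripts that the annotation GENCODE M21 gives for these genes, 30 were not analysed here, in 23 of the 40 symbols. For 8 genes (Syp, Stx1a, Nsf, Syt1, Gad1, Elavl4, Vamp2 and Gria1) less than 50% of the listed TPM came from protein-coding transcripts, and all 8 had at least 1 coding transcript not analysed. The other 33 identifiers included 15 with such a transcript. The coding part was 8.4% for Syp, 9.6% for Stx1a, 31.1% for Gad1 and 42.2% for Vamp2. The levels of Vamp2, Stx1a and Bsn, 3 of the 4 genes that were not above every control in both obesogenic 1 and 3, leave out Vamp2-201, Stx1a-201 and Bsn-201. Slc17a7 had all its coding transcripts listed. Among the 17 symbols with every coding transcript listed, 16 were above every control library in obesogenic 1 and 3. For Slc17a6, the main transcript Slc17a6-201 did not overlap between the diets (0.72, 0.32 and 1.00 TPM against 9.73, 1.67 and 74.8 TPM), although the gene sum did.

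Of 62 other synapse and neuronal genes, 47 were above every control library in obesogenic 1 and 3, beside 31.6% of all genes tested. Of the 51 that were tested, 0 passed, and 18 were higher and 0 lower at an unadjusted p under 0.05 in limma, beside 5.97% of all genes higher. The median log2 difference was 1.00, and 22 passed, all higher, without obesogenic 2, beside 5.12% of all genes. Syngr3, a vesicle protein, was at 10.2, 5.69 and 7.99 TPM in the controls and at 79.9, 22.0 and 210.4 TPM in the obesogenic libraries. Th, the rate-limiting enzyme of dopamine synthesis, was at 1.62, 0.58 and 3.51 TPM and at 19.3, 6.87 and 38.4 TPM. The monoamine vesicle carrier Slc18a2, the chloride exporter Slc12a5 and the RNA-binding proteins Elavl2 and Celf4 did not overlap between the diets either, with log2 differences of 1.69, 2.98, 2.09 and 2.73, nor did Cadps2 (1.00) and Ppfia3 (1.09). Kif5a, an axonal transport motor, had the opposite order, at 410.0, 438 and 529 TPM in the controls and at 390.2, 161 and 316 TPM in the obesogenic libraries.

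Markers of hypothalamic neurons were also high in obesogenic 1 and 3. The hypothalamus lies directly above the optic chiasm. The 18 hypothalamic neuropeptides summed to 824, 426 and 2227 TPM in the controls and to 8217, 1375 and 7693 TPM in the obesogenic libraries, and 13 of the 18 were above every control in obesogenic 1 and 3, an order that 31.6% of all genes tested had. Avp, the vasopressin precursor, made up most of that sum, at 619, 351 and 2038 TPM and at 6257, 933 and 4584 TPM. The 12 hypothalamic transcription factors summed to 12.4, 10.2 and 11 TPM and to 68.3, 14.4 and 108 TPM, with 10 of the 12 in that order. Neurofilament genes, which axons and cell bodies both hold, summed to 23.8, 21.5 and 47.8 TPM and to 90.0, 21 and 274 TPM. The 6 secretory granule genes summed to 686, 164 and 180 TPM and to 1557, 261 and 1236 TPM. Control 1 was the highest control there, and its Chga level of 413 TPM exceeded that of obesogenic 3, at 309 TPM. In contrast, the 8 retinal ganglion cell markers summed to between 12.9 and 17.8 TPM in the controls and between 8.08 and 13.3 TPM in the obesogenic libraries. Rbpms alone made up most of that sum, at 15.0, 11.1 and 10.8 TPM in the controls and at 9.49, 6.26 and 9.36 TPM in the obesogenic libraries. The 10 meningeal fibroblast markers summed to 671 to 854 TPM in the obesogenic and 1744 to 2687 TPM in the control libraries, and for 8 of the 10 all obesogenic libraries lay below all controls. The 7 endothelial markers summed to 276 to 323 TPM against 567 to 884 TPM, with 6 of the 7 in that order. Of all 14364 genes tested, 1070 had that order. With immunoglobulin genes left out and the libraries rescaled, 831 of 14352 did, and the marker counts were not repeated on that scale. The 6 microglia markers summed to 2144 TPM in obesogenic 2 and to between 541 and 821 TPM in the other libraries. The 8 pituitary markers summed to 304, 1.80 and 6.13 TPM in control 1, 2 and 3. They summed to 451, 27.0 and 110 TPM in obesogenic 1, 2 and 3, so control 1 exceeded obesogenic 3. The part of any of these in the synapse gene levels was not tested.

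Obesogenic 1 and 3, which differed in the ratio of Slc17a6 to Gad2, also differed in which peptides they held. Vip and Nms, peptides of the suprachiasmatic nucleus, were at 204 and 19.4 TPM in obesogenic 1 and at 4.38 and 1.24 TPM in obesogenic 3. Pmch, Hcrt and Tac1 had the reverse order, at 3.18, 30.5 and 31.5 TPM in obesogenic 1 and at 250.3, 110.9 and 287 TPM in obesogenic 3; the first 2 encode the melanin-concentrating hormone and orexin peptides of the lateral hypothalamus. Nr5a1, a factor of the ventromedial hypothalamus, was at 3.51 TPM in obesogenic 1 and 22.1 TPM in obesogenic 3. Other hypothalamic factors went either way. Nkx2-1 was at 10.5 and 35.0 TPM, and Six6 at 19.7 and 9.86 TPM, in obesogenic 1 and obesogenic 3. These are 2 libraries of 1 group, the genes were picked for their contrast, and no test was run.

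**Figure D5:**
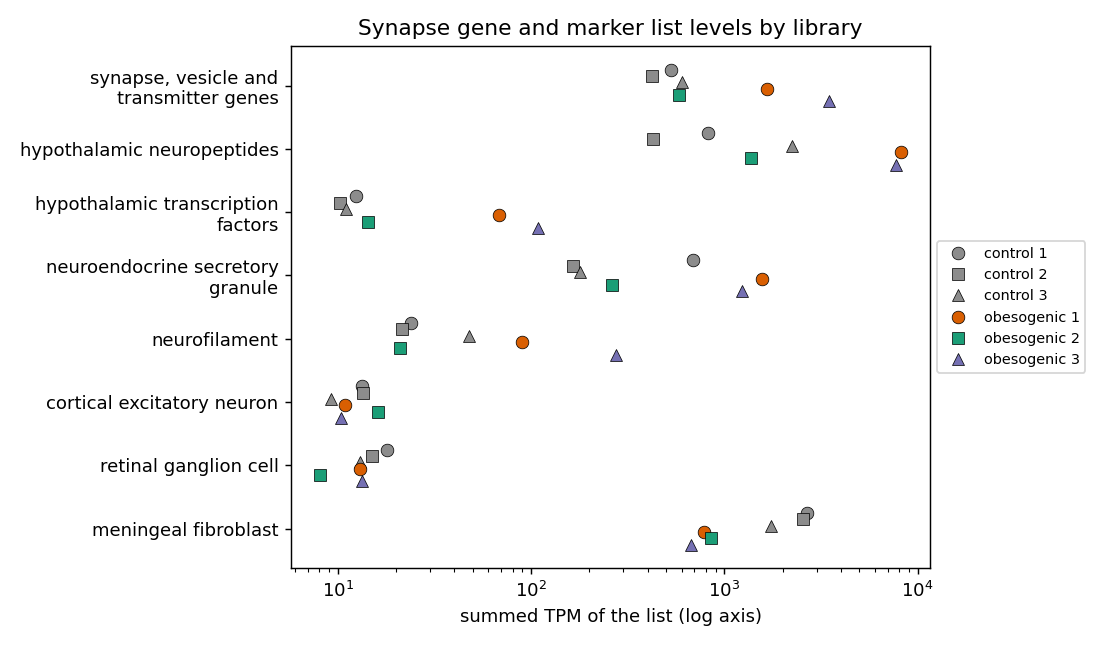
Summed TPM of the synapse, vesicle and transmitter genes and of 7 marker lists in each library, on a log axis. Obesogenic 1 and 3 lie above all controls for the synapse genes, both hypothalamic lists, the secretory granule list and the neurofilaments, but not for cortical or retinal ganglion cell markers, and all 3 obesogenic libraries lie below the controls for meningeal fibroblasts.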

How the data were processed

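Poly(A) RNA was sequenced from the optic nerves of 6 libraries, 3 per diet, prepared with Takara's SMART-Seq mRNA kit from RNA of its NucleoSpin RNA Plus XS kit, per the labels' protocols. The authors deposited transcript abundances in TPM. DRAGEN, STAR 2.7.9a, featureCounts 2.0.3 and Subread appear in the submitters' processing notes with no role stated. Which of them produced TPM, and on which build and annotation, is not given in the sources used here. TPM keeps no depth, so no counting interval was computed.

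Of 110028 lines, 109383 distinct transcripts were kept and summed to 35850 genes, without rescaling. Transcripts not listed are missing from gene sums. The 14364 genes that reached 1 TPM in 3 or more of the 6 libraries were tested as log2(TPM + 1), which understates changes of low genes, with limma 3.58.1 in R 4.3.3 (lmFit, eBayes with trend, two-sided), and Benjamini-Hochberg adjusted p-values were called at 0.05. The fit was tested on simulated data. Ratios within libraries were compared by exact permutation of log2 ratios. Coding lengths came from GENCODE M21, which holds 108221 of the transcripts, and promoters from RefSeq; no coordinate came from the authors' table. Alternatives were other pseudocounts, filters and scalings, the replicate block, eBayes without trend, the most abundant transcript per gene, and libraries left out.

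The genes, the lists and the setting without obesogenic 2 were chosen with earlier results of these data known. Every gene of the group is named; of the 62 companion genes, those with a mean of at least 2 TPM and no overlap between diets, or among the 8 lowest p-values, are named, except 1 that is not reported here.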

Additional observations from a re-analysis of the deposited data

How the results depend on the processing

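Of the 39 genes tested, 39 kept their direction and did not pass the threshold with pseudocounts of 0.5 and 0.1 TPM, without the filter on low values, with 2 other scalings, without the trend, with the replicate block, and without control 1, 2 or 3 in turn. With a filter of 5 TPM, 24 could be tested and all 24 did so. The labels do not say that sample numbers pair the libraries. Deviations from the group means of same-numbered libraries correlated at 0.0079, 0.18 and 0.13. Obesogenic 2 and obesogenic 3 each correlated best with the control of the same number, while obesogenic 1 correlated best with control 3, at 0.11. These values do not settle whether the numbers pair the libraries. With the replicate block the median log2 difference was 1.76, 0 of the 39 genes passed, their lowest adjusted p was 0.139 in limma, and 1 gene of all tested passed.

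Leaving out 1 library at a time gave 0 to 914 genes past the threshold, beside 1 with all libraries and 0 without the filter on low values. Among them were 0 to 25 of the 39 and 0 to 22 of the companion genes. The obesogenic libraries lay above the controls without overlap for 15 to 37 of the 39, beside 10.8% to 31.6% of all genes tested. The median was 1.08 to 2.60, beside 0.022 to 0.158 over all genes tested. Each upper bound came from leaving out obesogenic 2. With obesogenic 2 as the single obesogenic library, assumed to vary like the controls, 193 genes passed, 1 of them in the companion list, and the median was 0.27. Differences then turned to -0.37 for Camk2a, -0.54 for Cplx2, -0.23 for Dlg4, -0.26 for Grin2b, -0.28 for Homer1, -0.22 for Map2, -0.012 for Pclo, -1.40 for Rab3a, -0.68 for Rims1, -0.82 for Sv2a, -0.54 for Sv2b, -0.15 for Unc13a and 0.032 for Vamp2. Without obesogenic 3 they turned to -0.060 for Rab3a, -0.076 for Sv2a and 0.13 for Vamp2, and without obesogenic 1 to -0.012 for Sv2a; without obesogenic 2, Rab3a and Sv2a were at 1.84 and 0.73. Stx1a was at -0.065 with the most abundant transcript per gene, and Vamp2 at 0.00042 when immunoglobulin genes were left out. With that rescaling, obesogenic 2 lay above all controls for 23 of the 41 genes (56.1%; 38.6% of all genes tested), in place of 15 (36.6%; 22.7%). The cause of these shifts was not tested. Unknown depth limits the genes near 1 TPM.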
